A study of Mus musculus with 8 samples.

Results

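The 9 transcription factor genes that set lymphocyte lineage were followed through the immune cells of the mouse brain: Pax5, Ebf1, Gata3, Tbx21, Eomes, Foxp3, Tcf7, Lef1 and Zbtb16. They were picked by symbol alone, and all 9 were found among the 32285 genes of the count tables. For each gene the unique molecular identifiers (UMIs, one per captured RNA molecule) were summed over the cells of each lymphoid type in each library. The level is given as UMIs per 1000000 UMIs of the same cells (CPM), and the positive share is the percentage of cells with at least 1 UMI.

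The cells came from brains of wild-type (WT) C57BL/6J mice and of APPNL-G-F knock-in mice (APP libraries below), which carry a humanized amyloid-β sequence with the Swedish, Arctic and Iberian mutations in the endogenous gene, so that no transgene promoter was involved. All mice were labelled as 16 weeks old, whereas the study's methods give a younger age for the mice that entered the treatments, and which age applies at collection is uncertain. Mice of each genotype drank water (control), drank 2% dextran sulfate sodium for 1 week (acute colitis), went through 3 cycles of 5 days on 2% dextran sulfate sodium and 5 days on water (chronic colitis), or were sensitized with ovalbumin in alum and then fed ovalbumin (food allergy). CD45-PE was given intravenously before perfusion, and CD45.2+ cells were sorted from the dissociated brain and made into 1 droplet 5′ library per condition, 8 libraries in all, with hashtag antibodies that the labels do not tie to single mice. Each of the 8 conditions therefore had 1 library and no replicate of its own, and p-values below measure the spread between libraries of different conditions.

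The libraries held 4875 to 7199 cells each and 50038 in all, with 25619903 to 54618574 UMIs in cells and a median of 2782 to 4130 UMIs per cell. Lymphoid types were gated on fixed marker genes, none of them among the 9 factors, which gave 17431 lymphoid cells (34.8% of all cells) in 14 types. B lineage cells comprised 735 pro-B and large pre-B cells (surrogate light chain or Dntt), 1502 small pre-B cells (Rag1 or Rag2 without Ighd), 3404 mature B cells (Ighd, Fcer2a or Cr2) and 887 plasma cells. T cells comprised 1195 conventional CD4 cells, 181 CD4 cells with at least 2 of Il2ra, Ctla4, Ikzf2 and Gpr83 (regulatory-gated), 182 CD8 cells without and 3681 with Ccl5, 876 IL-17-type and 266 other γδ T cells, and 651 NK1.1 T cells. The remaining types were 447 Gzmc-positive and 988 Gzma-positive NK cells and 2436 group 2 innate lymphoid cells (ILC2). Some gate markers are also in the short lists of genes taken to lie beside a factor. They are Il1rl1, Il5 and Il13 for Gata3 (ILC2 gate), Il2ra, Ctla4 and Ikzf2 for Foxp3 (regulatory gate) and Il23r for Zbtb16 (IL-17-type γδ gate). High levels of these factors in those types are thus not independent of the gates. The short lists do not hold every target of a factor. Levels of the other factors, such as Pax5 and Ebf1 in the B cell gates, are therefore not shown to be independent either. Among markers that no gate used, Xbp1 was found in 99.4% of plasma cells, Nkg7 in 98.2% of Gzmc-positive and 98.3% of Gzma-positive NK cells, Il7r in 94.8% of ILC2 and Tcrg-V6 in 92.7% of IL-17-type γδ cells. Other γδ cells were less well marked, with Tcrg-C1 in 18.8% of cells against 75.6% of IL-17-type cells. No other γ constant gene was read, so this share alone cannot tell a weak gate from another γδ subset. NK1.1 T cells were a mixture by markers that no gate used, with the αβ receptor gene Trac in 42.2% and the NK adaptor gene Tyrobp in 42.9%. In conventional CD4 cells Trac was in 46.9% and Tyrobp in 4.18%. No 2 libraries shared more than 72 cell barcodes.

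Lymphocyte identity is held by small sets of such factors. EBF1 and PAX5 commit progenitors to the B lineage and keep B cells in it, and both are shut off when a B cell becomes an antibody-secreting plasma cell. GATA3 is needed by T cells, type 2 helper cells and ILC2, and the paired T-box factors T-bet (Tbx21) and eomesodermin (Eomes) by cytotoxic and interferon-γ-producing cells. FOXP3 defines regulatory T cells, TCF1 (Tcf7) and LEF1 act at the end of the Wnt pathway and mark naive and memory T cells, and PLZF (Zbtb16) gives innate-like T cells their rapid effector behaviour. In the brain and its borders, ILC2, γδ T cells that make IL-17, and B cells at early stages are among the resident or skull-derived lymphocytes described in mice.

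Apart from Tcf7 and Lef1, each factor had 1 lymphoid type, or 1 group of related types, that stood above the rest on average, as the plot of levels by type shows. Tcf7 fell gradually over the T and NK types. Lef1 was high in unrelated types, with means of 249 CPM in Ccl5-negative CD8 cells and 234 CPM in pro-B and large pre-B cells. The highest mean level was in mature B cells for Pax5, small pre-B cells for Ebf1, ILC2 for Gata3, Gzmc-positive NK cells for Tbx21, Gzma-positive NK cells for Eomes, the regulatory gate for Foxp3, Ccl5-negative CD8 cells for Tcf7 and Lef1, and IL-17-type γδ cells for Zbtb16. For Ebf1, Gata3, Foxp3 and Zbtb16 the libraries of the highest type did not overlap those of the next lymphoid type, whereas for the other 5 factors they did. Foxp3 rested on the 4 libraries with at least 20 regulatory-gated cells. How many of all genes separate their highest type in this way was not counted. Neutrophils, which should lack these factors, gave a background: between 0.0236% (Eomes) and 0.612% (Gata3) of 4246 neutrophils had a UMI.

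**Figure D1:**
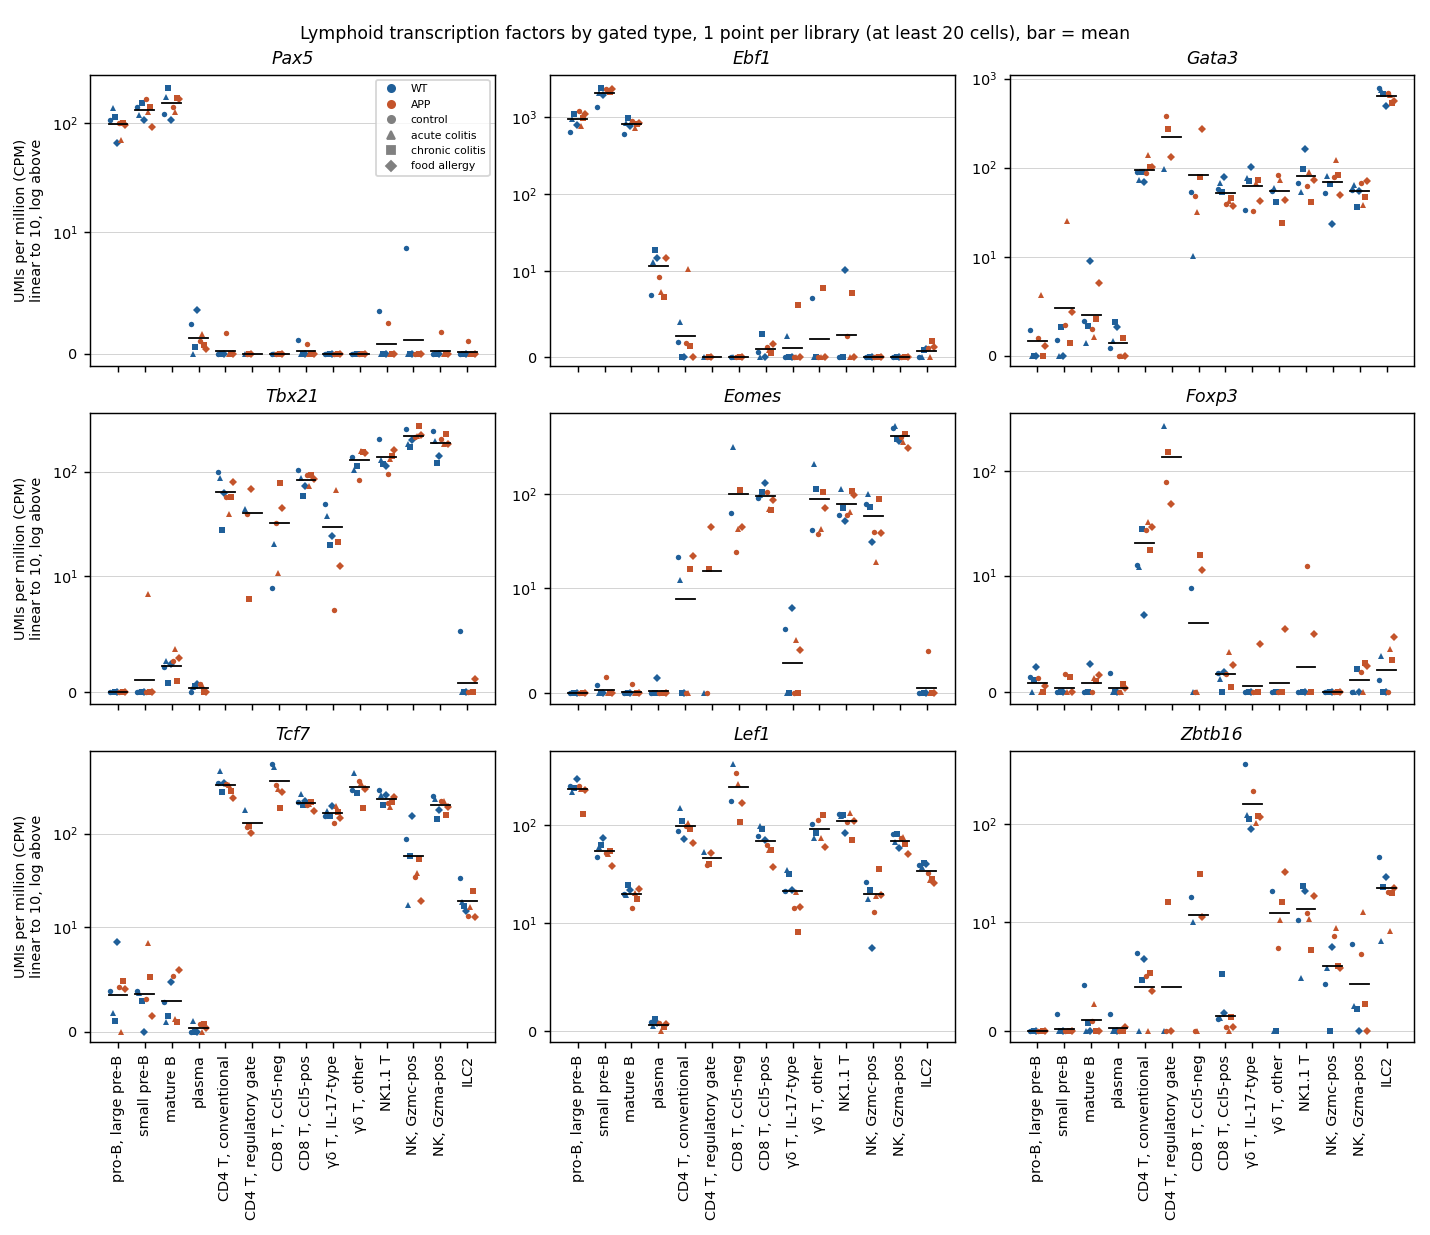
Level of each of the 9 factors (vertical axis, CPM, linear to 10 and logarithmic above) in the 14 lymphoid types (horizontal axis). Each point is 1 library with at least 20 cells of the type (blue WT, orange APP; circle control, triangle acute colitis, square chronic colitis, diamond food allergy) and the bar is their mean. Zbtb16 in IL-17-type γδ cells runs from 89.2 to 407 and ILC2 hold the highest Gata3, 495 to 786.

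Pax5, the paired-box factor that keeps B cells committed (chr4:44524757-44710487, minus strand, GRCm38), was found at each B cell stage and nearly gone from plasma cells. Over the 8 libraries its lowest, median and highest levels were 66.5, 101 and 137 CPM in pro-B and large pre-B cells, 92.6, 134 and 169 CPM in small pre-B cells and 108, 154 and 212 CPM in mature B cells. In plasma cells they were 0, 0.889 and 3.58 CPM, so the ranges of plasma and mature B cells lay far apart. Ebf1, the pioneer factor that opens B lineage genes (chr11:44617317-45008091, plus strand), peaked between these stages: 643, 949 and 1185 CPM in pro-B and large pre-B cells, 1355, 2106 and 2363 CPM in small pre-B cells, 604, 811 and 967 CPM in mature B cells and 7.05, 11.3 and 18.6 CPM in plasma cells. The small pre-B range stood above those of both neighbouring stages, in every library. The positive share of Pax5 was highest in pro-B and large pre-B cells, at 55.9% against 31.5% in small pre-B and 32.9% in mature B cells. Those cells were also the deepest, with library medians of 5188 to 12575.5 UMIs against 1835.5 to 3447 in small pre-B and 2082 to 2826 in mature B cells. After each cell was thinned to 1000 UMIs the shares were 11.5%, 13.9% and 14.2%, so the order of the unthinned shares was not kept.

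The sequence just upstream of the annotated start sites was read for the members with a RefSeq window (8 of 9, 14 windows of 250 bases, GRCm38.p6). Zbtb16 had none. Both strands were searched for 5 motifs. Of all 32851 windows, 0.779% held the palindromic EBF motif, 9.99% AGATAA of the GATA factors, 3.33% TCACACC of the T-box factors, 3.17% TGTTTAC of the forkhead factors and 13.8% CTTTGA of TCF and LEF factors. No match in a member's window overlapped another. Among the members, the GATA motif was in 1 window of Foxp3, the T-box motif in 1 of Ebf1 (78 bases before the start) and the TCF and LEF motif in 1 of Lef1 (180 and 120 bases before the start, both on the minus strand), and the other 2 motifs were in none. The Ebf1 and Lef1 windows with a match are shown, and the Foxp3 window with a match, which overlaps an exon of the noncoding gene Flicr, is not. Both windows shown lie in an intron of their own gene, overlap no annotated exon and run 5′ to 3′ on the plus strand with the matches in capitals. The first is chr11:44619978-44620227 and the second chr3:131156044-131156293. A match is a description of the letters only.
Ebf1: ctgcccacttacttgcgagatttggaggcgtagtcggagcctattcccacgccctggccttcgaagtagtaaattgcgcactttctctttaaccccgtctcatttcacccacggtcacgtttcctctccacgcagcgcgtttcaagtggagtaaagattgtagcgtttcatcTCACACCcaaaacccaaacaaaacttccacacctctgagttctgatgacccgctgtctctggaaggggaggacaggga
Lef1: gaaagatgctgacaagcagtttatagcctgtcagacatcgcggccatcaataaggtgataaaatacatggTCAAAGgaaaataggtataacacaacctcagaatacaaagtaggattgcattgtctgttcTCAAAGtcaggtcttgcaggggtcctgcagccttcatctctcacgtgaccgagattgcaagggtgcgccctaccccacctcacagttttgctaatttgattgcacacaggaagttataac

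Mature B cells differed from plasma cells in 3 of the 4 factors that had enough UMIs to be tested, in a fit in which 62.8% of all tested genes were called. Pax5 was higher in mature B cells by 5.22 ± 0.28 on the log2 scale (SE, n = 8 libraries, edgeR quasi-likelihood test, adjusted p = 1.7e-08), Ebf1 by 4.35 ± 0.17 (adjusted p = 2.2e-09) and Lef1 by 3.23 ± 0.31 (adjusted p = 3.0e-06), each in 8 of 8 libraries. Gata3 did not pass the test, with 4.15 ± 2.86 CPM in mature B cells and 1.29 ± 1.33 CPM in plasma cells (SD, adjusted p = 0.97). Immunoglobulin genes took 59.8% to 67.4% of plasma cell UMIs against 1.88% to 2.44% in mature B cells, which lowers every other CPM of plasma cells: Ebf1 rose from 11.6 to 33.6 CPM there when those genes were left out. The median of all genes in this fit was 0.11. Of 36 other lymphoid factors, 30 were tested, of which 18 were higher and 9 lower, with a median of 1.54. The germinal centre repressor Bcl6 was higher in mature B cells by 4.61 ± 0.34, whereas the plasma cell factors Prdm1 and Xbp1 were lower, at -6.65 ± 0.24 and -6.00 ± 0.24. Of the 7 genes taken to lie beside Pax5 and Ebf1, all were tested and 5 were higher, among them the inhibitory receptors Cd22 (5.65 ± 0.21) and Cd72 (5.46 ± 0.27) and the scaffold gene Bank1 (4.31 ± 0.15), whereas Blnk and Fcrla did not pass (0.18 ± 0.10 and -0.15 ± 0.14).

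From the earliest gate to the mature one, Pax5 rose while Lef1 fell. Mature B cells had more Pax5 than pro-B and large pre-B cells by 0.62 ± 0.09 (adjusted p = 8.4e-06, 8 of 8 libraries), less Lef1, at -3.50 ± 0.10 (adjusted p = 2.9e-14, 8 of 8 libraries) and slightly less Ebf1, at -0.20 ± 0.07 (adjusted p = 0.015, 8 of 8 libraries), and these were the 3 factors that could be tested, beside 66.2% of all genes called. The Ebf1 call was lost without the APP control library (-0.17, adjusted p = 0.052), without the APP food allergy library (-0.16, adjusted p = 0.060) and with hashtag groups as samples (-0.04, adjusted p = 0.73). Lef1, a Wnt effector that early B cells also use (chr3:131110471-131224356, plus strand), had a lowest, median and highest level of 132, 239 and 300.5 CPM in pro-B and large pre-B cells, 38.2, 53.4 and 73.4 CPM in small pre-B cells and 14.3, 20.2 and 24.4 CPM in mature B cells. Its 3 ranges did not overlap. Small pre-B against mature B cells gave 3 calls, with 52.9% of all genes called: Ebf1 1.20 ± 0.06 (adjusted p = 5.4e-11, 8 of 8 libraries), Lef1 1.28 ± 0.14 (adjusted p = 1.1e-06, 8 of 8 libraries) and Pax5 -0.37 ± 0.11 (adjusted p = 0.012, lower in 5 of 8 libraries). Among the other factors, Sox4, which early lymphocytes use, was higher in small pre-B than in mature B cells by 3.41 ± 0.15, as was Tcf3, which encodes the E2A proteins (1.35 ± 0.08), and Bhlhe40 and Bcl11a were lower, at -4.44 ± 0.27 and -2.77 ± 0.12. In all, 8 of 27 tested factors were higher and 14 lower there (median -0.63, against -0.03 for all genes), and 16 of 28 were higher and 6 lower in mature B than in pro-B and large pre-B cells (median 1.15, against 0.06). Of the 7 genes beside Pax5 and Ebf1, 5 were higher and 1 (Vpreb3, -1.15 ± 0.09) lower in the latter comparison, and 3 were higher and 3 lower in small pre-B against mature B cells.

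**Figure D2:**
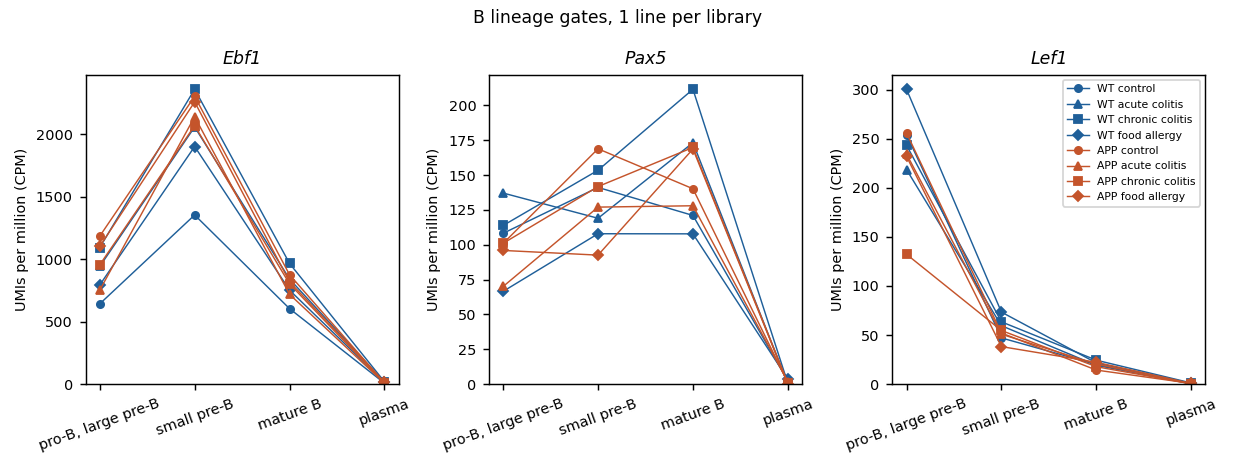
Levels of Ebf1, Pax5 and Lef1 (vertical axes, CPM, each from 0) over the 4 B lineage gates (horizontal axis), with 1 line per library (blue WT, orange APP, symbols by treatment). In each of the 8 libraries Ebf1 is highest in small pre-B cells, Lef1 is highest in pro-B and large pre-B cells, and all 3 are lowest in plasma cells, where Ebf1 is at most 18.6.

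Pax5 and Ebf1 were read in the same cells. Of the Pax5-positive cells, 100% also had an Ebf1 UMI in the pro-B and large pre-B gate (411 cells), 97.9% in small pre-B cells and 82.7% in mature B cells. Of the Pax5-negative cells, 98.5%, 97.4% and 79.8% had one in the same gates. Ebf1 was thus detected nearly as often without a Pax5 UMI as with one. Among plasma cells 91 had Ebf1 (10.3%, exact 95% interval 8.34% to 12.4%) and 16 had Pax5, of which 11 had both. The profile of barcodes without cells, scaled by the neutrophil genes S100a8 and S100a9, was also subtracted. Pax5 in plasma cells was then at 0 in 5 of 8 libraries, of which 4 had held 1 to 3 UMIs, and Ebf1 was at 3.83 to 15.0 CPM, with WT acute colitis going from 13.3 to 5.45 CPM. Those low levels therefore lie partly within the estimated background. Outside the lymphoid gates, Ebf1 was also high in fibroblasts: 363 to 582 CPM in the 4 libraries with at least 20 of them, and 73.9% of 188 cells were positive. No other factor of the 9 except Zbtb16 exceeded 20 CPM on average in a non-lymphoid gate.

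Gata3 (chr2:9857078-9890034, minus strand) was the factor of ILC2. Its lowest, median and highest levels were 495, 659 and 786 CPM in ILC2, and 69.6 to 139 CPM in all conventional CD4 cells of the same libraries, with no overlap. Next came regulatory-gated cells, with 97.0 CPM in WT acute colitis, 378 CPM in APP control, 272 CPM in APP chronic colitis and 133 CPM in APP food allergy. All other T and NK types had means of 52.6 to 93.5 CPM, and the order among them was not separated by the spread of the libraries. The Gata3 share of positive cells was 78.6% in ILC2 (thinned to 1000 UMIs, 48.2%) against 12.6% in Ccl5-positive CD8 cells (3.56%). An exon of Gata3 overlaps, on the same strand, an exon of 9230102O04Rik, which is also in the count table, so the split of UMIs between them is uncertain.

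ILC2 and conventional CD4 cells differed in each of the 7 factors that could be tested, in a fit with 35.2% of all genes called. Gata3 was higher in ILC2 by 2.81 ± 0.11 (adjusted p = 4.2e-13) and Zbtb16 by 2.39 ± 0.29 (adjusted p = 2.0e-06), each in 8 of 8 libraries. The other 5 were lower: Tbx21 at -6.03 ± 0.35 (adjusted p = 1.1e-10), Tcf7 at -4.06 ± 0.14 (adjusted p = 6.8e-14), Foxp3 at -3.33 ± 0.48 (adjusted p = 1.7e-05) and Lef1 at -1.49 ± 0.13 (adjusted p = 3.4e-08), all in 8 of 8 libraries. Eomes was also lower, at -3.60 ± 0.95 (adjusted p = 0.0074), but it had only 4 UMIs in ILC2 and 42 in CD4 cells, was lower in 4 and higher in 1 of 8 libraries, and was not called by DESeq2 (adjusted p = 0.40). ILC2 thus held 6 UMIs of Tbx21 in 2436 cells, while Tcf7 remained measurable at 13.0, 16.8 and 33.8 CPM (lowest, median, highest) and Lef1 at 25.9, 34.9 and 40.7 CPM. Of the genes beside Gata3 that no gate used, both tested genes were higher, the growth factor gene Areg by 4.23 ± 0.21 and the chemokine receptor gene Ccr8 by 2.51 ± 0.18. Of the genes beside Tbx21 and Eomes, all 4 tested were lower (median -6.25), namely the cytokine gene Ifng (-6.04 ± 0.39), the chemokine receptor gene Cxcr3 (-6.79 ± 0.20), Gzmb (-6.46 ± 0.37) and Il2rb (-2.67 ± 0.11). Among the other lymphoid factors 9 of 30 were higher and 13 lower (median -0.27, against 0.02 for all genes), with Rora, another ILC2 factor, higher by 1.11 ± 0.20 and Zfp683, the tissue-residency factor Hobit, lower, at -4.70 ± 0.45. ILC2 also had the highest summed level of 10 immediate-early genes, a sign of handling or activation, at 10699 to 18196.5 CPM against 372 to 8287 CPM in the other lymphoid types. T cell receptor transcripts were present in part, with Tcrg-C1 at 215 CPM and Trac at 3.65 CPM. The part of either in the differences was not tested.

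**Figure D3:**
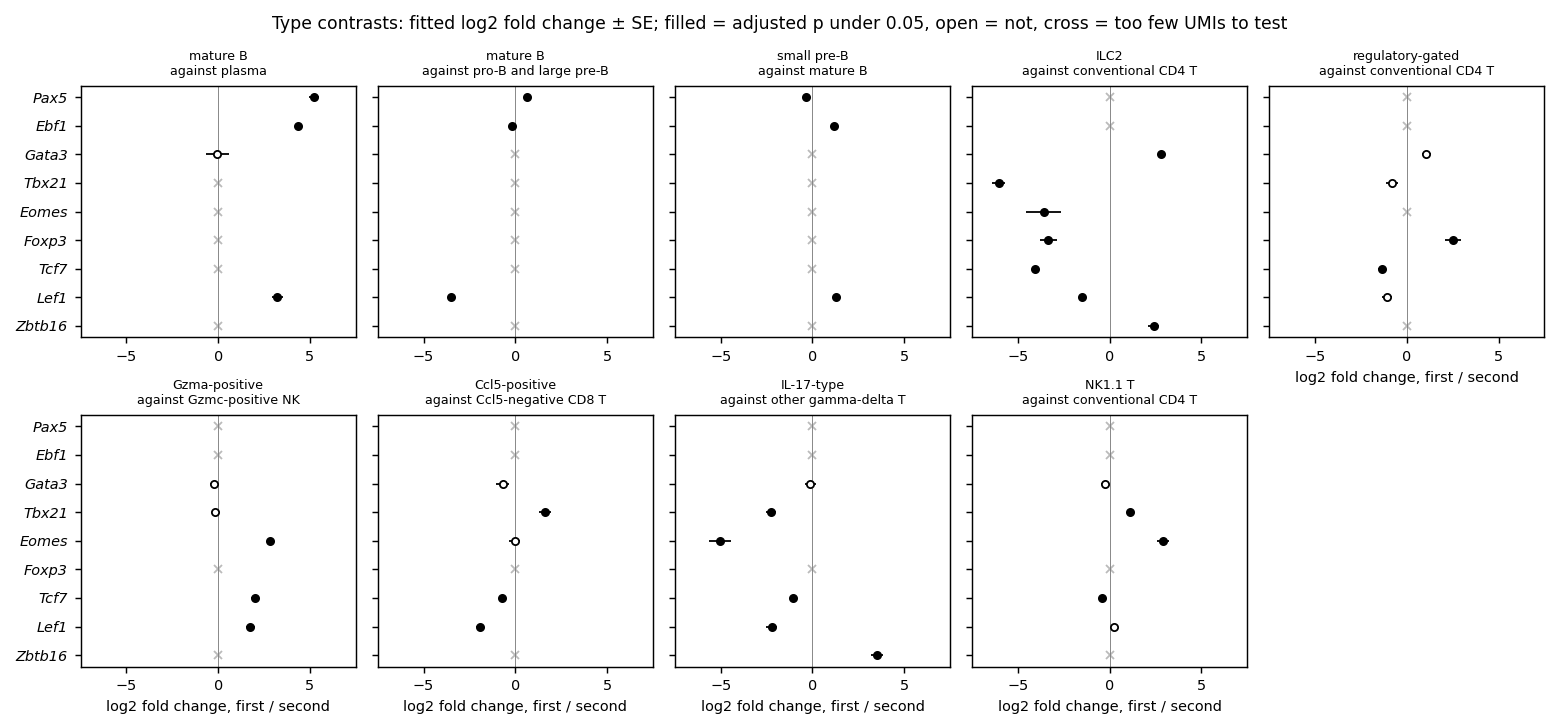
Fitted log2 fold change (horizontal axis, first type over second) of each of the 9 factors (vertical axis) in the 9 type contrasts, with bars of 1 SE. Filled points had an adjusted p under 0.05 in the edgeR fit over all genes, open points did not, and grey crosses at 0 mark factors with too few UMIs to test; 32 of 43 tested values were called.

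The T-box pair split between the NK subsets. Tbx21 (chr11:97098071-97115331, minus strand), which drives interferon-γ programmes, was at 173, 216 and 274 CPM in Gzmc-positive NK cells and 122, 191 and 243 CPM in Gzma-positive NK cells (lowest, median, highest). Eomes (chr9:118478212-118486132, plus strand), the factor of circulating, mature NK cells, was at 19.0, 55.6 and 98.9 CPM in Gzmc-positive and 309, 389 and 522 CPM in Gzma-positive cells, with no overlap. Tbx21 thus overlapped between the subsets while Eomes did not. Gzma-positive cells had more Eomes by 2.84 ± 0.14 (adjusted p = 2.8e-14), more Tcf7 by 2.03 ± 0.23 (adjusted p = 1.5e-07) and more Lef1 by 1.76 ± 0.22 (adjusted p = 1.2e-06), each in 8 of 8 libraries, so 3 of 5 tested factors were called beside 12.8% of all genes. The Lef1 call was lost with hashtag groups as samples (1.59, adjusted p = 0.098), where 5 groups had enough cells of both subsets. Tbx21 differed at -0.17 ± 0.10 (adjusted p = 0.35) and Gata3 at -0.23 ± 0.22 (adjusted p = 0.60). Of 24 other lymphoid factors tested, 11 were higher and 5 lower in Gzma-positive cells, led by Klf2, which controls exit into blood, at 4.75 ± 0.15, while Zfp683 was lower, at -3.25 ± 0.29 and Maf at -1.45 ± 0.24. All 6 genes beside the T-box pair were tested, of which 2 were higher (S1pr5, a sphingosine receptor for egress, 5.33 ± 0.41, and perforin, Prf1, 1.097 ± 0.14) and 3 lower (Gzmb, -1.78 ± 0.14, Cxcr3, -0.40 ± 0.12, and Il2rb, -0.36 ± 0.07). Of cells with an Eomes UMI, 46.9% also had Tbx21 in the Gzma-positive gate and 51.1% in the Gzmc-positive gate. Eomes was in 65.6% of Tbx21-positive and 60.1% of Tbx21-negative cells of the Gzma-positive gate. In the Gzmc-positive gate the shares were 10.8% and 10.2%, so Eomes was detected nearly as often without a Tbx21 UMI.

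Among T cells Tbx21 was highest in NK1.1 T and other γδ cells, whereas Eomes had means of 78.0 to 99.5 CPM in these and both CD8 gates, with overlapping ranges. The highest of these means, in Ccl5-negative CD8 cells, was 56.8 CPM without the WT acute colitis library. NK1.1 T cells had 94.6, 131 and 204 CPM of Tbx21 and 51.9, 67.4 and 111 CPM of Eomes. Compared with conventional CD4 cells, they were higher in Tbx21 by 1.099 ± 0.13 (adjusted p = 2.1e-06) and Eomes by 2.92 ± 0.32 (adjusted p = 5.9e-07), each in 8 of 8 libraries, and lower in Tcf7 at -0.42 ± 0.10 (adjusted p = 0.0034, 7 of 8 libraries); these were 3 of 5 tests, with 16.7% of all genes called. Gata3 (-0.27 ± 0.18) and Lef1 (0.25 ± 0.13) did not pass. Among the genes beside the T-box pair 3 of 5 were higher, Prf1 by 2.98 ± 0.24, Gzmb by 2.75 ± 0.29 and Il2rb by 1.44 ± 0.11, and none lower. Of the other lymphoid factors 6 of 25 were higher and 8 lower, with Satb1 up by 1.93 ± 0.16 and Maf down at -1.92 ± 0.16. Because this gate held the NK gene Tyrobp at 713 CPM, against 52.2 CPM in conventional CD4 cells and 3075 CPM in Gzma-positive NK cells, NK cells within it could add to these values, and their part was not tested. Zbtb16, the factor of invariant NKT cells, was at only 4.84 to 23.6 CPM here, and 4.76% of the cells were positive.

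CD8 T cells fell into a large Ccl5-positive gate and a small Ccl5-negative one, compared in the 6 libraries with at least 20 cells of both. Tbx21 was at 73.1 to 103 CPM in Ccl5-positive and 8.98 to 78.3 CPM in Ccl5-negative cells of those libraries. Ccl5-positive cells had more Tbx21 by 1.62 ± 0.32 (adjusted p = 6.5e-04, 6 of 6 libraries), less Lef1, at -1.93 ± 0.19 (adjusted p = 1.3e-09, 6 of 6) and less Tcf7, at -0.72 ± 0.17 (adjusted p = 0.0050, 5 of 6), which made 3 calls in 5 tests where 3.90% of all genes were called. The Tcf7 call was lost without the WT control library (-0.55, adjusted p = 0.087). Eomes did not pass, at -0.03 ± 0.29 (adjusted p = 0.98). In Ccl5-negative cells it was at 62.8 CPM in WT control, 313 CPM in WT acute colitis, 24.0 CPM in APP control, 42.7 CPM in APP acute colitis, 110 CPM in APP chronic colitis and 44.8 CPM in APP food allergy. The WT acute colitis value came from 31 UMIs in 2 positive cells of 21, and it set the mean of the gate. Without that library the mean fell from 99.5 to 56.8 CPM and the difference was 0.74 (adjusted p = 0.24). Of the genes beside the T-box pair all 5 tested were higher in Ccl5-positive cells, with Gzmb at 3.81 ± 0.39, Ifng at 1.64 ± 0.48, Cxcr3 at 1.32 ± 0.23, Il2rb at 1.30 ± 0.17 and Prf1 at 1.09 ± 0.30. All 4 tested genes beside Tcf7 and Lef1 were lower, among them Dapl1 (-2.89 ± 0.31), Satb1 (-1.90 ± 0.24) and S1pr1 (-1.36 ± 0.26). Over all genes 190 were higher and 98 lower with TMM scaling, 161 and 150 with RLE size factors and 92 and 126 with DESeq2. Of other factors 3 of 26 were higher (Id2, Runx3, Bhlhe40) and 5 lower, with Id3, a naive T cell factor, at -2.10 ± 0.40.

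Foxp3 (chrX:7573644-7595245, plus strand) was highest in the regulatory gate, and conventional CD4 cells were also above the neutrophil background. In the 4 libraries with at least 20 gated cells it was at 267 CPM in WT acute colitis, 78.2 CPM in APP control, 152 CPM in APP chronic colitis and 48.5 CPM in APP food allergy. In conventional CD4 cells it was at 12.2 to 29.3 CPM in those libraries, so each regulatory value was above each conventional one, although the former spread widely. Of 181 regulatory-gated cells in all libraries, 58 (32.0%) had a Foxp3 UMI (exact 95% interval 25.3% to 39.4%), against 4.35% of conventional CD4 cells and 0.188% of neutrophils. The larger conventional gate thus also held Foxp3-positive cells. The remaining cells of the gate, the majority, had no Foxp3 UMI at a library median depth of 2184.5 to 4273 UMIs. Some UMIs may belong to Flicr, a noncoding gene of the same strand whose exons overlap Foxp3.

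Regulatory-gated cells had more Foxp3 than conventional CD4 cells by 2.52 ± 0.43 (adjusted p = 0.0057, 4 of 4 libraries) and less Tcf7, at -1.36 ± 0.19 (adjusted p = 0.0012, 4 of 4), 2 calls in 5 tests beside 1.14% of all genes. Tcf7 was at 101 to 179.5 CPM in the gate and 238 to 462 CPM in conventional cells. Both calls were lost without WT acute colitis (Foxp3 1.80, adjusted p = 0.22; Tcf7 -1.35, adjusted p = 0.061), and that of Foxp3 also without APP chronic colitis (2.34, adjusted p = 0.052). Gata3 at 1.06 ± 0.26 (adjusted p = 0.062) and Lef1 at -1.08 ± 0.29 (adjusted p = 0.085) moved in 4 of 4 libraries without passing, and both passed when the filter on low counts was dropped (adjusted p = 0.0052 and 0.011) or the APP food allergy library was left out (adjusted p = 0.027 and 0.037). Tbx21 was at -0.81 ± 0.32 (adjusted p = 0.33). Of the Foxp3-positive cells in the gate, 51.7% (30 of 58) also had a Gata3 UMI, against 26.9% (14 of 52) in conventional cells. Among Foxp3-negative cells Gata3 was in 45.5% (56 of 123) of the gate and 19.9% (227 of 1143) of conventional cells, so Gata3 was more widely detected in the gate with or without a Foxp3 UMI. These shares were not thinned. Library medians were 2184.5 to 4273 UMIs in the gate against 2238 to 3226.5 in conventional cells, and the part of depth was not tested. The genes beside Foxp3 that no gate used gave 1 call in 3 tests, the costimulatory receptor gene Tnfrsf4 (1.02 ± 0.21), while Tnfrsf18 (0.56 ± 0.22) and Nrp1 (0.61 ± 0.27) did not pass. Of the genes beside Gata3, Areg was higher by 2.25 ± 0.33. Among 26 other lymphoid factors none was higher and 2 were lower, Id2 (-0.87 ± 0.19) and Zfp683 (-4.20 ± 0.83).

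Tcf7 (chr11:52252371-52283014, minus strand), was highest on average in Ccl5-negative CD8 cells. There it was at 548 CPM in WT control, 515 CPM in WT acute colitis, 328 CPM in APP control, 299 CPM in APP acute colitis, 188 CPM in APP chronic colitis and 279.8 CPM in APP food allergy. Both WT libraries were above the 4 APP ones, from 21 to 42 cells each. Conventional CD4 cells followed, with 344, 462, 275 and 348 CPM in WT and 339, 332, 282 and 238 CPM in APP libraries (control, acute colitis, chronic colitis, food allergy). The ranges of these types overlapped. The positive share in conventional CD4 cells was 48.8% (exact 95% interval 45.9% to 51.7%), and 24.5% after thinning to 1000 UMIs. Lef1 was at 87.7, 152, 112 and 72.9 CPM in WT and 98.4, 107, 91.0 and 65.8 CPM in APP libraries there, and 23.1% of the cells were positive.

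The order of Tcf7 from there down was other γδ cells (mean 313 CPM), NK1.1 T cells (234), Ccl5-positive CD8 cells (213), Gzma-positive NK cells (200.4), IL-17-type γδ cells (165), the regulatory gate (129), Gzmc-positive NK cells (57.7) and ILC2 (18.9). Each of these overlapped its neighbour in the range of libraries. B lineage types averaged at most 3.61 CPM. Lef1 had another order, since pro-B and large pre-B cells (234 CPM) came right after Ccl5-negative CD8 cells (249) and before NK1.1 T cells (112) and conventional CD4 cells (98.3), and each of these overlapped the next. Both factors were found in the same cell in 35.2% of Ccl5-negative CD8 and 13.8% of conventional CD4 cells, against 9.54% of Ccl5-positive CD8 cells and 0.616% of ILC2. Of Lef1-positive cells, 59.8% also had Tcf7 among conventional CD4 cells but 5.05% in the pro-B and large pre-B gate.

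Zbtb16 (chr9:48654297-48836222, minus strand), which encodes PLZF, was mainly a gene of IL-17-type γδ cells. Compared with other γδ cells in 7 libraries, it was at 102 to 407 CPM against 0 to 32.5 CPM and higher by 3.52 ± 0.32 (adjusted p = 1.6e-08, 7 of 7 libraries). The 4 other called factors were lower in IL-17-type cells, in 7 of 7 libraries each: Eomes at -5.04 ± 0.61 (adjusted p = 8.8e-07), Tbx21 at -2.28 ± 0.27 (adjusted p = 7.5e-07), Lef1 at -2.22 ± 0.30 (adjusted p = 3.7e-06) and Tcf7 at -1.08 ± 0.15 (adjusted p = 4.1e-06). Gata3 was at -0.11 ± 0.28 (adjusted p = 0.83), which left 5 calls in 6 tests with 26.0% of all genes called. Tcf7 nonetheless stayed at 130 to 195 CPM in the IL-17-type cells of those libraries, while Eomes had 7 UMIs. All 4 tested genes beside Zbtb16 were higher, Ccr6, the receptor that guides these cells to epithelia, by 1.94 ± 0.44, Icos by 1.36 ± 0.24, Il18r1 by 1.03 ± 0.19 and Cd44 by 0.71 ± 0.18. All 5 genes beside the T-box pair were lower, led by Gzmb (-4.88 ± 0.33) and Ifng (-3.54 ± 0.66). Of the other factors 7 of 23 were higher and 10 lower, with Maf up by 2.73 ± 0.19 and Rora by 1.68 ± 0.17, and Klf2 down at -3.10 ± 0.18. Other γδ cells had Tyrobp at 664 CPM against 63.7 CPM, and the part of NK-like cells in that gate was not tested.

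Genotype was read from an additive fit of genotype and treatment over the 8 libraries, in the 11 types with at least 20 cells in each, so that it rested on 4 libraries against 4 with 3 residual degrees of freedom. No factor was called in 44 tests by edgeR or DESeq2, and 7 had an unadjusted p under 0.05. Over all genes, that threshold was met by genotype in 280 of 7740 genes in small pre-B cells (the lowest share) to 792 of 8590 in ILC2 (the highest). The share of all genes called by genotype was between 0.0447% (mature B) and 0.710% (ILC2). The strongest were Lef1 and Gata3 in Ccl5-positive CD8 cells, where 0.281% of all genes were called. Lef1 there was at 78.7, 98.4, 91.1 and 70.9 CPM in WT and 62.6, 55.7, 56.6 and 37.4 CPM in APP libraries (control, acute colitis, chronic colitis, food allergy), a difference of -0.59 ± 0.14 (adjusted p = 0.27). Every WT value was above every APP value. Gata3 was at 57.5, 68.0, 52.8 and 79.3 CPM in WT and 39.5, 41.8, 45.2 and 37.1 CPM in APP libraries, likewise without overlap, at -0.56 ± 0.15 (adjusted p = 0.34). How many of all genes separate the genotypes without overlap was not counted. The summed level of 10 immediate-early genes in these cells also separated the genotypes, at 2048, 3256, 1445 and 3171 CPM in WT and 1151, 1184, 939 and 1087 CPM in APP libraries, and its part in either difference was not tested. Lef1 was called without the WT control library (-0.79, adjusted p = 0.043) and without the APP control library (-0.79, adjusted p = 0.045).

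Treatment gave 3 calls in 132 tests, with 12 at an unadjusted p under 0.05. That threshold was met by 194 of 7975 genes in pro-B and large pre-B cells in food allergy (the lowest share) to 1137 of 8590 in ILC2 in food allergy (the highest). Over all genes the treatments called between none (such as each in mature B cells) and 1.05% (chronic colitis in IL-17-type γδ cells) in a type, for example 0.0646% in small pre-B cells in food allergy, 0.0128% in plasma cells in chronic colitis, 0.0142% in conventional CD4 cells in chronic colitis and likewise 0.0142% in food allergy, 0.0540% in Ccl5-positive CD8 cells in acute colitis and 0.0554% and 0.0831% in Gzmc-positive NK cells in acute and chronic colitis. All 3 calls of factors were Zbtb16 in IL-17-type γδ cells, each treatment against the same 2 control libraries. In WT libraries it was at 407 CPM in control, 125 CPM in acute colitis, 111 CPM in chronic colitis and 89.2 CPM in food allergy. In APP libraries it was at 219 CPM in control, 102 CPM in acute colitis, 122 CPM in chronic colitis and 119 CPM in food allergy. Both controls were above all 6 treated libraries. Zbtb16 fell in each, with log2 differences of -1.47 ± 0.27 in acute colitis (adjusted p = 0.037, 0.413% of all genes called), -1.47 ± 0.26 in chronic colitis (adjusted p = 0.016, 1.05% called) and -1.58 ± 0.26 in food allergy (adjusted p = 0.012, 0.963% called), in both genotypes each time. The 3 values share their controls and are not independent. DESeq2 called none of them (adjusted p = 0.10, 0.098 and 0.097). Without the WT control library they were -0.93, -0.96 and -1.11 and none was called (adjusted p = 0.36, 0.22 and 0.10). The acute call was also lost without either acute colitis library, the chronic call without the WT chronic colitis library and the food allergy call without the WT food allergy library (adjusted p = 0.20 to 0.31).

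Within libraries the level also varied between hashtag groups, which were counted where they held at least 20 of these cells. In the WT control library it was 346 CPM in HashTag_6 and 643 CPM in HashTag_7, and in the APP control library 141 CPM in HashTag_6 and 366 CPM in HashTag_7. The 12 groups of treated libraries had 38.1 to 150 CPM, so the APP control HashTag_6 group lay among them. Il17a, one of the 3 genes of the gate, moved with it: 1806, 2100 and 16198 CPM in the 3 high groups, 497 CPM in the APP control HashTag_6 group and 0 to 691 CPM in treated groups. The inflammatory genes Cxcl2 and Ptgs2 and the granule gene Srgn, chosen after their values were seen, were at 80.5 to 355 CPM, 59.0 to 621 CPM and 2415 to 6995 CPM in the 3 high groups, against at most 14.9, 28.8 and 1196 CPM in treated ones. The summed level of 10 immediate-early genes overlapped, at 4001 to 10190.5 CPM in control groups and 650 to 7682 CPM in treated ones. By library it was 6529 CPM in WT control against 7051, 4403 and 6450 CPM in WT acute colitis, chronic colitis and food allergy. In APP control it was 6366 CPM against 4510, 2709 and 3541 CPM in the same treatments. Only WT acute colitis was thus above the control of its genotype. The γδ gene Tcrg-C1 overlapped between the groups, with 288 to 452 CPM in control groups against 331 to 812 CPM in treated ones. Pooling both γδ gates, in which Il17a plays no part, kept the 3 calls (-1.45 to -1.57, adjusted p = 0.032, 0.026 and 0.015). Of the Zbtb16 UMIs in the pooled cells, 268 of 271 in WT control and 93 of 94 in APP control came from IL-17-type cells. The pooled fit thus read nearly the same UMIs and was no separate check. Gating on Cd163l1 or Il23r alone took WT control from 175 to 172 cells and APP control from 108 to 105 and removed none elsewhere, so it was no separate check. In the cells with no Il17a UMI the differences were -1.40, -1.13 and -1.27 with adjusted p of 0.43, 0.51 and 0.61, so none was called. The level there was 370 CPM in WT control against 108, 91.1 and 63.8 CPM in treated WT libraries, and 101 CPM in APP control against 55.9, 117 and 115 CPM in treated APP libraries (acute colitis, chronic colitis, food allergy). APP control thus lay among the treated APP libraries, and only WT control stood above the treated ones. All 3 settings were added after the data were seen. The part of Il17a-producing or activated cells in the difference was not tested beyond these values.

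**Figure D4:**
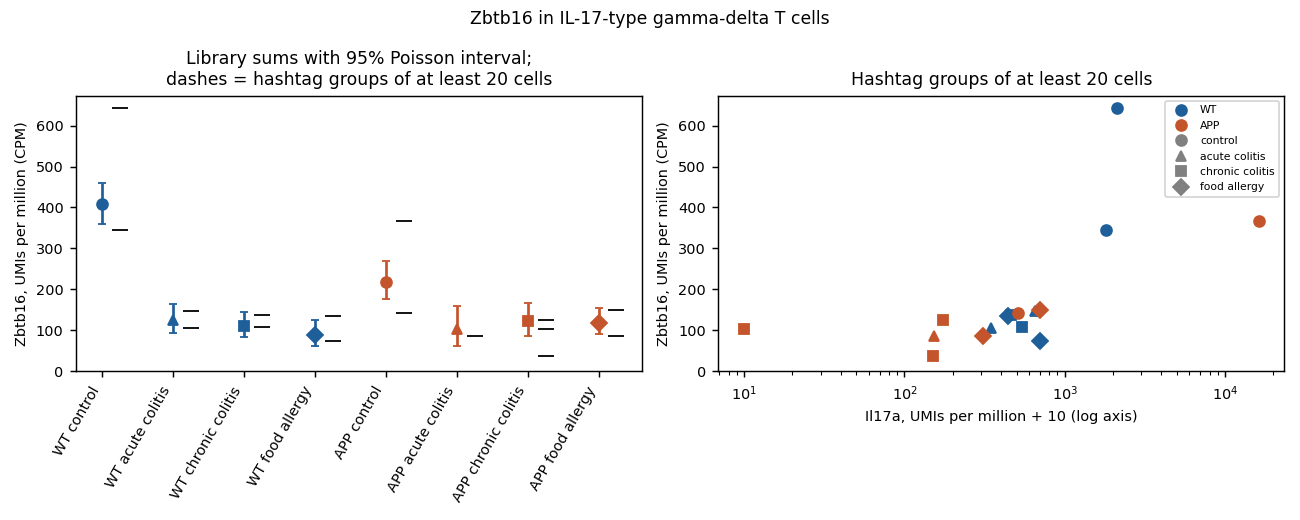
Left, Zbtb16 in IL-17-type γδ cells (vertical axis, CPM) in each library, with the exact 95% Poisson interval of its UMIs and dashes for hashtag groups of at least 20 cells. Right, the same hashtag groups against Il17a (CPM plus 10, logarithmic axis); 3 control groups lie at 346 to 643 with Il17a at 1806 or more, and all other groups at or below 150.

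In the same cells Gata3 went the other way without passing. It was at 33.4 CPM in WT control and 33.0 CPM in APP control, against 77.3, 71.6 and 103 CPM in treated WT and 66.6, 73.3 and 41.7 CPM in treated APP libraries (acute colitis, chronic colitis, food allergy). Both controls were below all 6 treated libraries, and the differences were 1.099 ± 0.37, 1.08 ± 0.35 and 1.06 ± 0.35 with adjusted p of 0.29, 0.20 and 0.22. How many of all genes place both controls outside all treated libraries was not counted. Hashtag groups overlapped, with APP control at 56.5 CPM (HashTag_6) and 5.55 CPM (HashTag_7) and APP food allergy at 9.68 CPM (HashTag_4). In cells with no Il17a UMI, APP control (42.1 CPM) was above APP food allergy (28.7 CPM). The other treated libraries were at 59.7 to 95.7 CPM there, and WT control at 30.8 CPM. In ILC2, Zbtb16 was at 46.5, 8.30, 23.1 and 28.7 CPM in WT and 20.2, 9.23, 19.6 and 22.4 CPM in APP libraries (control, acute colitis, chronic colitis, food allergy). Acute colitis was lowest in both genotypes, at -1.86 ± 0.40 (adjusted p = 0.067, with 0.594% of all genes called). It passed with cells of 1 hashtag only (-2.03, adjusted p = 0.044) and without the APP control library (-2.17, adjusted p = 0.019). The other 5 treatment values with an unadjusted p under 0.05 were Pax5 in small pre-B cells in food allergy (-0.59 ± 0.22, adjusted p = 0.99999), Pax5 in mature B cells in chronic colitis (0.55 ± 0.24, adjusted p = 0.56), Lef1 in conventional CD4 cells in acute colitis (0.56 ± 0.25, adjusted p = 0.999), Tcf7 in Gzma-positive NK cells in chronic colitis (-0.56 ± 0.20, adjusted p = 0.61) and Gata3 in ILC2 in food allergy (-0.36 ± 0.16, adjusted p = 0.36).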

How the data were processed

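The deposited matrices held raw UMI counts per gene and hashtag for every barcode, made by the authors with Cell Ranger (6.1.2 per the processing notes, an older version per the file headers) on the mouse build mm10 (GRCm38); the annotation release was not given in the sources used here. The deposited barcode and feature lists served only as names. Barcodes were called cells by a test against ambient RNA (false discovery rate 0.01, 500 or more UMIs, ambient profile from barcodes ranked 45000 to 90000) if they also held 200 or more genes and if mitochondrial transcripts took 5% or less. Of 50038 cells, 4505 (9.00%) met the gates of several classes and were left out as possible doublets, 14201 met a class but no stage or subset, and 6428 met no class.

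Cell classes needed at least 2 of their marker genes, and no gate used a member. T cells were gated on Cd3d, Cd3e and Cd3g, then on Cd4, Cd8a, Cd8b1, Trdc and Klrb1c, and IL-17-type γδ cells also on Cd163l1, Il17a or Il23r. B cells were gated on genes including Cd79a, Cd79b and Ms4a1, NK cells on Ncr1, Klrb1c, Klre1 and Klrk1, and ILC2 on Il1rl1, Il17rb, Hs3st1, Il5, Il13 and Arg1. UMIs were summed per type and library (sums of at least 20 cells) and, on these sums of cells, fewer expressing cells and less RNA per cell cannot be told apart. Type pairs were tested with edgeR 4.0.16 (quasi-likelihood test, TMM, filterByExpr, R 4.3.3) with the library as a block, and conditions in an additive fit of genotype and treatment. P-values were adjusted by Benjamini-Hochberg over all genes tested and called under 0.05. Exact Poisson and binomial 95% intervals cover counting error only. Where a group had 0 UMIs, a floor of 3 counts was kept and no fold was given. In simulated counts with 200 genes changed by 2 on the log2 scale, 200 were called for ILC2 against CD4 cells (8475 genes, 9 false calls), 185 for CD8 T cells (7391 genes, 4 false calls), 200 for genotype in ILC2 (8590 genes, 3 false calls) and 192 for acute colitis in ILC2 (8590 genes, 10 false calls). The changed genes had a mean above 10 counts per sum, and the simulated spread was that of genes of similar level. Recovery was not read for sparser genes, and the IL-17-type γδ fit was not simulated.

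The 9 members, the gates and the lists (36 other lymphoid factors and short lists of genes taken to lie beside each factor) were chosen with earlier results of these data known. A planned split of conventional CD4 cells and some genes are not reported here, and those cells were pooled instead, a choice made after the data were seen. All members, and otherwise the called or leading genes of the lists, are named. Alternatives were DESeq2 1.42.0, RLE scaling, no filter, gates of at least 3 markers, every barcode of at least 500 UMIs, cells with 1 hashtag, hashtag groups as samples, and leaving out each library. Promoter windows came from RefSeq (GRCm38.p6), gene intervals from GENCODE vM21.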

Additional observations from a re-analysis of the deposited data

Results flagged for a closer look

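In 88 groups of 4 WT or 4 APP libraries, 4 held a library whose gap to the nearest other was above Dixon's 95% critical value, and chance alone gives about 1 in 20. Zbtb16 in IL-17-type γδ cells was one in both genotypes, at 407 CPM in WT control against 89.2 to 125 CPM in the other WT libraries, and at 219 CPM in APP control against 102 to 122 CPM in the other APP libraries. Pax5 in pro-B and large pre-B cells was at 70.0 CPM in APP acute colitis against 95.9 to 101 CPM. Lef1 in NK1.1 T cells was at 83.1 CPM in WT food allergy against 125.9 to 129.97 CPM in the other WT libraries.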

How the results depend on the processing

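Of the 32 factor calls between types, 26 held under every alternative, and of 448 alternative values of called factors 439 stayed called, 9 lost the call and none changed sign. Without the filter on low counts the calls were 5 (3 with it) in mature B against pro-B and large pre-B cells, 4 (2) in the regulatory gate and 5 (3) in NK1.1 T cells. Leaving out 1 library gave 0 to 4 calls in the regulatory gate, 3 to 5 in NK1.1 T cells (5 without WT food allergy, where Gata3 was called at -0.46, adjusted p = 0.030), 0 to 1 by genotype and 0 to 4 by treatment; DESeq2 gave 0 by treatment. Gata3 in NK1.1 T cells was also called with cells of 1 hashtag (-0.65, adjusted p = 0.0018). The cause of these changes was not tested.

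The values that changed sign were uncalled before and after. Gata3 in mature B against plasma cells was 0.32 by DESeq2, 0.066 without the filter and -0.22 to 0.41 without 1 library (0.41 without WT chronic colitis). Gata3 in NK cells was 0.23 with hashtag groups. Gata3 in CD8 cells was -0.98 to 0.22 without 1 library (0.22 without APP food allergy), and in γδ cells 0.0081 without the filter and -0.31 to 0.13 without 1 library (0.13 without APP control). Eomes in CD8 cells was 0.15 by DESeq2, 0.087 without the filter, 1.03 with at least 3 markers, 0.035 with cells of 1 hashtag and -0.31 to 0.74 without 1 library (0.74 without WT acute colitis).

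Counts over all genes moved by more than 1.5 times in 5 pairs. The regulatory gate had 70 called genes, 38 by DESeq2, 239 without the filter, 12 without WT acute colitis and 38 without APP chronic colitis. NK subsets had 818, 507 by DESeq2 and 158 with hashtag groups, NK1.1 T cells 966, 604 and 492, and small pre-B cells 4591 and 3035 with hashtag groups. CD8 cells had 288 and 170 with at least 3 markers. On positive shares, Ebf1, Lef1 and Pax5 were highest in pro-B and large pre-B cells, and after thinning to 1000 UMIs only Lef1 was. Hashtag groups as samples could be fitted in 6 of 9 pairs. Type contrasts were paired by library, and treatment was a term in the fit of genotype. No paired analysis was possible by replicate number because the labels give none. Counts limited 38 of 81 factor tests between types, which had too few UMIs.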

Other observations

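Zbtb16 was also found outside lymphocytes, in values chosen after they were seen. In fibroblasts it ranged from 6.16 CPM in WT acute colitis to 187 CPM over the 4 libraries with at least 20 of these cells, in basophils or mast cells from 9.84 to 54.1 CPM, and in macrophages it was at 29.0, 9.17, 31.9 and 28.8 CPM in WT and 19.7, 4.81, 11.7 and 10.97 CPM in APP libraries (control, acute colitis, chronic colitis, food allergy). In macrophages, as in ILC2, acute colitis was lowest in both genotypes; the macrophage difference was not tested.

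The genes whose levels ran most like 8 of the factors over the 14 lymphoid types (Pearson's r of log2(CPM + 1), genes of at least 200 UMIs, a description over types that share libraries and depth) were Chst3 for Pax5 (0.992), Vpreb3 for Ebf1 (0.986), Xcl1 for Tbx21 (0.981), Nkg7 for Eomes (0.968), Penk for Foxp3 (0.945), Cd247 for Tcf7 (0.966), Rplp0 for Lef1 (0.937) and Smox for Zbtb16 (0.948). Xcl1 is a chemokine gene, Vpreb3 an early B cell gene and Nkg7 a cytotoxic granule gene.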
